A study of Mus musculus with 14 samples.

Results

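Id genes and target genes of BMP and SMAD signalling were followed in mouse cells between partial and genuine pluripotency. The genes were chosen by symbol: Id1, Id2, Id3, Id4, Smad6, Smad7, Bambi, Bmp4, Msx1 and Msx2. All 10 were found among the 18193 genes that had a probe set of their own on the array, with 17 probe sets in total. Levels are deposited log2 RMA signals, so a difference of 1 is a 2-fold difference, and each sample was hybridised to 1 array.

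The array of 45101 probe sets was run on 14 samples. Of 2i iPSCs there was 1 array from each of the partial iPSC clones 2B1 and 5C5 (female, C57BL/6) after conversion in 2i medium, in which MEK and GSK3 are inhibited. The 2 ESC arrays, from cells in LIF and serum, held a C57BL/6 line with a Nanog-GFP reporter (male, blastocyst-derived) and wild-type EBRTcH3 cells (male, 129sv). MEFs, 1 array, came from Nanog-GFP transgenic C57BL/6 embryos of mixed sex and were grown without LIF; their age is 12.5 dpc by the sample's title but 13.5 dpc by the text of the series. Untreated partial iPSCs, reprogrammed cells that stopped short of the pluripotent state, gave 1 array for each clone, in LIF and serum. The other 7 arrays were 2B1 partial iPSCs in LIF and serum after retroviral transfer of Cnot1, Cnot2, Cnot3, Cnot1 with Cnot2 and Cnot3 (Cnot123), Trim28, Nanog or empty vector, all on the 2B1 background, 1 array each. The partial and 2i arrays of a group are 2 clones and the ESC arrays 2 lines that also differ in strain, so the spread within a group is a spread between clones or lines, and nothing says that any culture was repeated.

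Bone morphogenetic proteins (BMPs) bind serine and threonine kinase receptors, which phosphorylate SMAD proteins that enter the nucleus with SMAD4 and switch on target genes. The Id genes are the best known of these targets. Id proteins have a helix-loop-helix domain but no DNA-binding region, and hold E proteins and other partners away from DNA. In mouse ESCs grown with LIF, BMP4 or serum is known to sustain Id expression and thereby self-renewal, whereas 2i medium removes the need for serum and BMP. SMAD6, SMAD7 and BAMBI are inhibitors that are themselves induced and feed back on the pathway, and MSX1 and MSX2 are homeobox repressors induced by BMP in embryonic tissues.

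The deposited values formed 2 sets of 7 arrays with differing distributions, from which separate normalization of the sets was inferred. Array means were 6.09 in the untransduced set and between 5.87 and 5.88 in the transduced set, and the 25th percentiles of the 14 arrays lay between 3.55 and 3.89. Levels were therefore not compared across the sets, and values near those percentiles are near background. The 7 pluripotency markers averaged between 11.50 and 12.01 in 2i iPSCs and ESCs, 5.93 and 5.97 in partial iPSCs and 4.68 in MEFs. Relative to partial iPSCs, limma called 5 of the 7 higher under 2i and 6 higher in ESCs. Pou5f1 went the other way and was already high in partial clones 2B1 and 5C5 (13.25 and 13.16). It was called lower under 2i (-1.36, limma adjusted p = 0.0233) and in ESCs (-0.86, limma adjusted p = 0.0407). The 10 fibroblast markers averaged 12.18 in MEFs, 8.88 and 8.85 in 2i iPSCs, 4.83 and 4.70 in ESCs, and 8.05 and 7.77 in partial iPSCs. Markers of primitive and visceral endoderm, trophoblast and mesoderm averaged at most 5.66 on every array. Within the trophoblast list Eomes, singled out after its values were seen, read 3.42, 5.18, 6.66, 4.08, 7.80 and 10.63 on the arrays labelled Cnot1, Cnot2, Cnot3, Cnot123, Trim28 and Nanog, and 7.64 with empty vector. The 4 neural markers averaged between 5.95 and 8.37, with 6.71 and 8.37 in partial clones 2B1 and 5C5. The introduced factors did not show on their own arrays: in 19 differences from empty vector over 11 probe sets of Cnot2, Cnot3, Trim28 and Nanog, the highest was 0.30, and Nanog read 3.12 on the array labelled Nanog against 4.11 with empty vector. Cnot1 had no probe set of its own. It is not known here whether these probe sets lie inside the introduced cDNAs, so the labels of these arrays were not checked by them, and each transduced array is named by its label.

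Promoter stretches of Id2, Id3, Id4 and Smad6, chosen after their low readings on 1 array described further on, are printed as a description. Bmp4 and Msx1 also read low on that array and were matched, but their stretches are not printed. Id1 read low there too and was not matched. RefSeq promoters of assembly GRCm38.p6 matched 7 of the 10 genes: Id2, Id3, Id4, Smad6, Bmp4, Msx1 and Msx2. The stretches run from 250 bases before to 20 bases after the annotated start, on the gene's strand. Capitals mark GGCGCC, a GC-rich element that SMAD1 and SMAD5 are known to bind, and GTCTAGAC, a palindrome that SMAD3 and SMAD4 are known to bind. Both motifs read the same on both strands, and they share no overlap.
Id2, chr12:25096073-25096342, minus strand: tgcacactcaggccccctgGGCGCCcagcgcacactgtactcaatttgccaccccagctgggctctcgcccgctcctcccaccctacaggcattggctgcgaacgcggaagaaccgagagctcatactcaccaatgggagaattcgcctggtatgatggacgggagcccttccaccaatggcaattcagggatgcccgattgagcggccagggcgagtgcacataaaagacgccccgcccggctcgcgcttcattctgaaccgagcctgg
Id3, chr4:136143572-136143841, plus strand: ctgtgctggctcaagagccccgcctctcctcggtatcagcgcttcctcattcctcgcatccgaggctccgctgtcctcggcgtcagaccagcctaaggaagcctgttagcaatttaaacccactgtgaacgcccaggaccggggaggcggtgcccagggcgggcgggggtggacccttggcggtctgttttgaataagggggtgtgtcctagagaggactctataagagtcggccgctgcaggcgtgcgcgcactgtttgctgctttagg
Id4, chr13:48260866-48261135, plus strand: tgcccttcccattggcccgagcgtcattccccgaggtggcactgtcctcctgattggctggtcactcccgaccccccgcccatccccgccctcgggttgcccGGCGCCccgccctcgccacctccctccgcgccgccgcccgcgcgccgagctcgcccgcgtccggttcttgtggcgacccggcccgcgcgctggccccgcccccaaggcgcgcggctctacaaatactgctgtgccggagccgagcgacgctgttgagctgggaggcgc
Smad6, chr9:64022040-64022309, minus strand: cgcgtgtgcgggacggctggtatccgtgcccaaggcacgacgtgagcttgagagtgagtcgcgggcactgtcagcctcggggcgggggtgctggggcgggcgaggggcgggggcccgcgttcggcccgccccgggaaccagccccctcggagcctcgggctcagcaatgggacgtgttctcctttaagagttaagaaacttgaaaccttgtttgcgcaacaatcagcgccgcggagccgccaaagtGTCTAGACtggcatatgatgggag

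GGCGCC occurred once in the Id2 stretch, 231 bases before the start, and once in that of Id4, 148 bases before the start. It occurred in 10.4% of 32851 such promoter stretches. GTCTAGAC occurred once in the Smad6 stretch, 4 bases before the start, and in 0.183% of all stretches. Neither motif was in these windows of Id3, Bmp4, Msx1 or Msx2. A match of letters is a description of the window and not a measured binding site.

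In 2i iPSCs Id1 fell and Smad7 rose relative to partial iPSCs. Id1, the Id gene most often used as a readout of BMP signalling, read 9.21 and 8.56 in 2i iPSCs of 2B1 and 5C5, against 11.97 and 12.44 in partial iPSCs. Both 2i arrays lay far below both partial arrays. Its log2 fold change of -3.32 (SE 0.30) had a limma adjusted p of 0.00878, or 9.96-fold lower, and the change was -2.75 within 2B1 and -3.88 within 5C5. Smad7, which blocks type I receptors of both the BMP and TGF-beta branches, read 8.60 and 8.79 in 2i iPSCs, against 7.18 and 7.59 in partial iPSCs. It rose by 1.31 (SE 0.22, limma adjusted p = 0.036), and its other probe set, 1443771_x_at, rose by 1.30 (SE 0.20, limma adjusted p = 0.0341 over 22693 probe sets, of which 2.63% were called higher). The call of Smad7 was lost when clones were fitted as a replicate block (limma adjusted p = 0.0701), and so it was without any of the 4 compared arrays (limma adjusted p from 0.0591 to 0.279), whereas Id1 lost its call without either 2i array only (limma adjusted p = 0.0588 and 0.088).

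The other members did not pass the test in this comparison. Bmp4, the ligand, read 9.21 and 8.20 in 2i iPSCs, against 5.80 and 6.14 in partial iPSCs, with a difference of 2.73 (SE 0.71, limma adjusted p = 0.0952). Its arrays did not overlap, but the 2i clones were 1.01 apart. Id4 stood at 7.81 and 7.72 in 2i iPSCs, against 9.49 and 9.05 in partial iPSCs (log2 fold change -1.50, SE 0.49, limma adjusted p = 0.143). Id2 stood at 8.34 and 7.14 in 2i iPSCs, against 9.57 and 9.20 in partial iPSCs (-1.64, SE 0.56, limma adjusted p = 0.157). For Id2 and Id4, too, each 2i array was below each partial array. With Id2 taken as the mean of its probe sets it was called lower in 2i iPSCs (-2.18, limma adjusted p = 0.0311) and in ESCs (-1.55, limma adjusted p = 0.0446), each against partial iPSCs. Id3 read 9.60 and 8.24 in 2i iPSCs and 9.88 and 9.37 in partial iPSCs, and its groups overlapped. Smad6, which preferentially inhibits the BMP branch, read 6.45 and 6.49 in 2i iPSCs, against 6.89 and 8.30 in partial iPSCs. Its partial clones were 1.41 apart. Bambi, a receptor-like protein without a kinase domain, and Msx1 and Msx2 had log2 fold changes of 0.38, -0.02 and -0.26 (95% intervals -0.36 to 1.12, -1.18 to 1.14, and -1.25 to 0.73).

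In all, 1 of 10 members rose and 1 fell under 2i, against 6.00% of 12663 tested genes called in either direction (3.55% higher and 2.46% lower). The median log2 fold change was -0.48 over the 10 members and 0.03 over all tested genes. With the 4 compared arrays alone, which leaves out the ESC arrays, 4 members were called, against 1396 of 12663 tested genes (847 higher and 549 lower). The members were Id1 and Id4, lower, and Smad7 and Bmp4, higher (limma adjusted p = 0.0287 for Id4 and 0.029 for Bmp4). Fibroblast markers moved beside these genes, with 2 of 9 tested rising under 2i and a median of 1.37. Their part in the result was not tested.

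**Figure D1:**
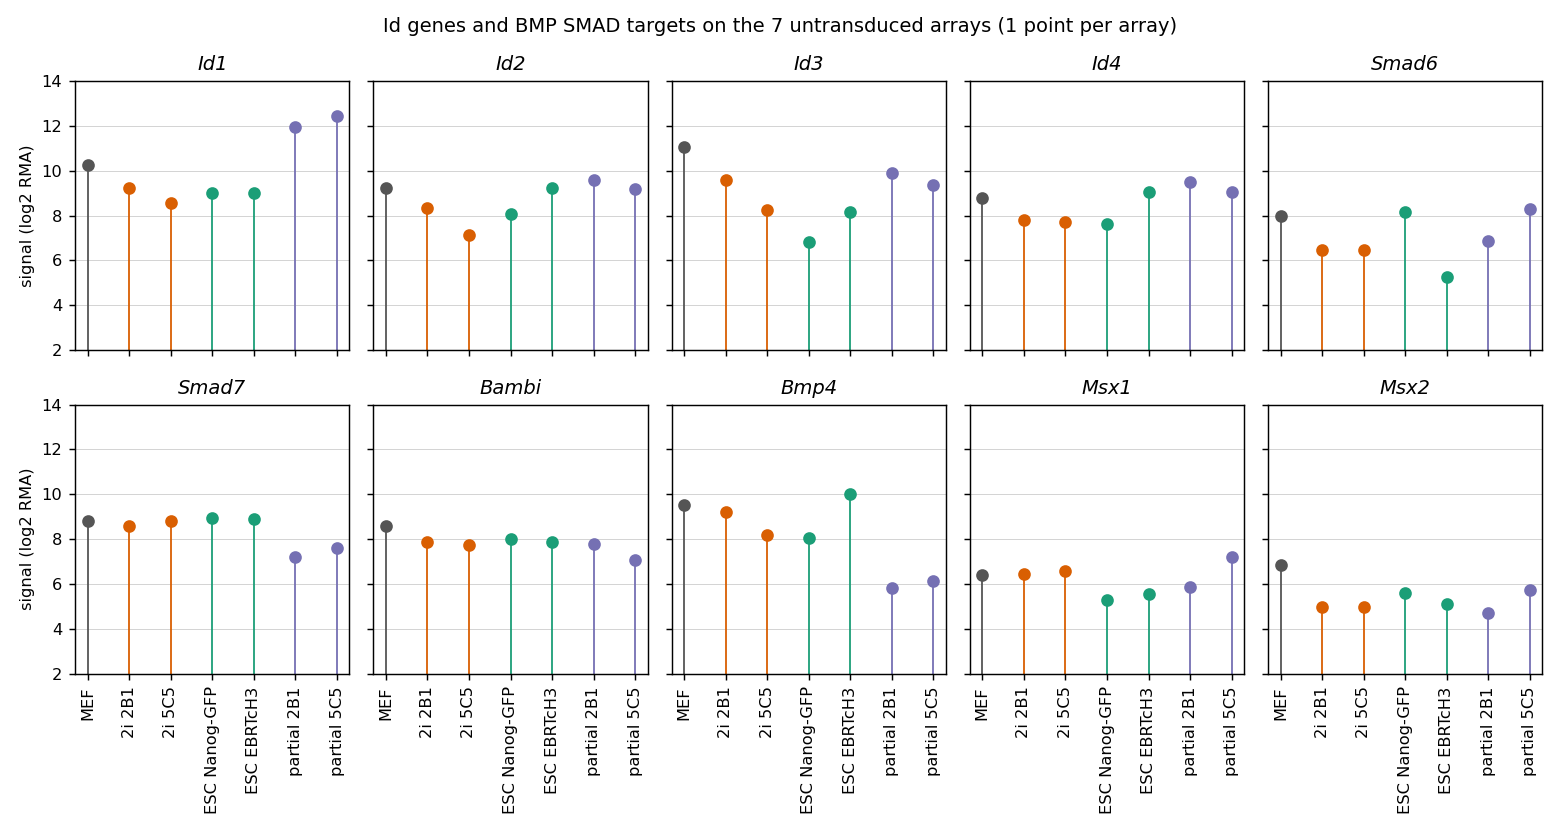
Signal (log2 RMA, y axis) of the 10 genes on each of the 7 untransduced arrays (x axis), 1 point per array, with the brightest probe set of each gene. Id1 stands at 11.97 and 12.44 in partial iPSCs, above all other arrays, and Smad7 and Bmp4 are lower in the partial clones than on the other 5 arrays.

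The probe sets of Id2 did not read alike. Probe sets 1435176_a_at and 1422537_a_at gave close readings, with 1422537_a_at at 8.09 and 7.18 in 2i iPSCs, 7.83 and 8.88 in ESCs, and 9.43 and 8.96 in partial iPSCs. The dimmer 1453596_at read 4.36 in MEFs, 3.59 and 3.95 in 2i iPSCs, 3.94 and 4.14 in ESCs, and 7.13 and 7.08 in partial iPSCs. It was at or near background in every untransduced sample other than the partial clones. By this probe set Id2 was called lower in 2i iPSCs (limma adjusted p = 0.00428) and in ESCs (limma adjusted p = 0.00205), each against partial iPSCs. Since readings near background give a bound only, these are differences of at least 9.30-fold in 2i iPSCs and at least 8.36-fold in ESCs, with any reading below its array's 25th percentile set to that percentile. Of all tested probe sets, 2.12% were called lower in the 2i comparison, and in that of ESCs 8.53% lower and 5.39% higher. In MEFs the 1435176_a_at signal, at 9.25, lay between those of the partial clones (9.57 and 9.20), while that of 1453596_at was lower than both by 2.77 and 2.73. Which Id2 transcript each probe set reads is not known here. The 3 probe sets of Id4 had log2 fold changes from -1.57 to -1.33 in 2i iPSCs. For Msx1, the partial clones were 1.35 apart on 1448601_s_at and 0.42 apart on 1417127_at.

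**Figure D2:**
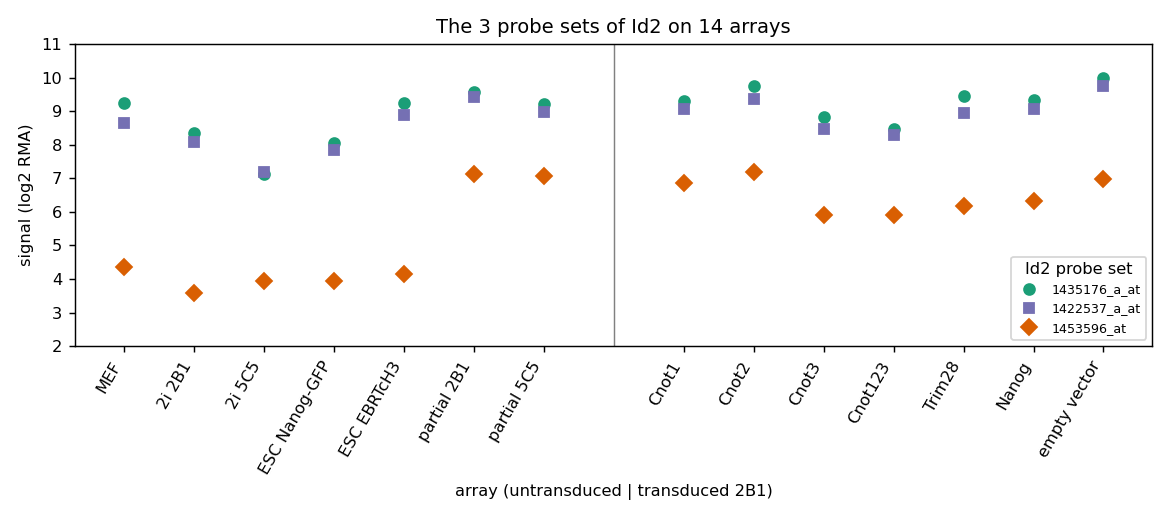
Signal (log2 RMA, y axis) of the 3 probe sets of Id2 on the 14 arrays (x axis). The transduced arrays, whose values are distributed differently, are to the right of the line. Probe set 1453596_at stands at 7.13 and 7.08 in the partial clones and at 3.59 to 4.36 on the other 5 untransduced arrays, a gap that the other 2 probe sets do not show.

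In ESCs Id1 was lower and Smad7 and Bmp4 were higher than in partial iPSCs, in a comparison that shares the partial arrays with that of 2i iPSCs. Id1 read 9.02 and 9.03 in Nanog-GFP and EBRTcH3 ESCs, against 11.97 and 12.44 in partial iPSCs (-3.18 on the log2 scale, SE 0.30, limma adjusted p = 0.00416). Its call held in each alternative run. Smad7 read 8.95 and 8.90 in ESCs, against 7.18 and 7.59 in partial iPSCs, and rose by 1.54 (SE 0.22, limma adjusted p = 0.0129; 0.054 with the 4 compared arrays alone). Bmp4 read 8.03 and 10.01 in ESCs, against 5.80 and 6.14 in partial iPSCs, and was higher by 3.05 (SE 0.71, limma adjusted p = 0.0467). Bmp4 sat at the threshold and was not called when clones were fitted as a replicate block (limma adjusted p = 0.0901), without the filter on dim genes (0.0622), with the 4 compared arrays alone (0.0953) and without EBRTcH3 or either partial array (0.0611 to 0.155).

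Calls were gained by leaving out 1 array, for Id4, lower in ESCs without EBRTcH3 (limma adjusted p = 0.0281), and for Msx1, lower without partial clone 2B1 (-1.79, limma adjusted p = 0.0276). Id3 read 6.84 and 8.14 in ESCs, against 9.88 and 9.37 in partial iPSCs (log2 fold change -2.13, SE 0.62, limma adjusted p = 0.0803). Although its groups did not overlap, the difference did not pass. Msx1 read 5.29 and 5.53 in ESCs, against 5.85 and 7.20 in partial iPSCs (-1.11, SE 0.46, limma adjusted p = 0.166). The other Msx1 probe set, 1417127_at, differed by only -0.14 (limma adjusted p = 0.699). The remaining differences from partial iPSCs were -0.73 for Id2, -0.92 for Id4, -0.88 for Smad6, 0.51 for Bambi and 0.14 for Msx2, with limma adjusted p from 0.253 to 0.835. In all, 2 of 10 members were higher and 1 was lower in ESCs, against 15.9% of tested genes called (6.09% higher and 9.82% lower). The median over the members was -0.80, and it was 0.00297 over all tested genes. Fibroblast markers were lower in ESCs in 7 of 9 tested genes, and their part was not tested.

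The lines of ESCs differed from each other in several members. Smad6 read 8.18 in Nanog-GFP ESCs and 5.26 in EBRTcH3 ESCs, a gap of 2.92 with no replicate of either line. The other gaps ran the opposite way, with EBRTcH3 higher by 1.98 for Bmp4, 1.41 for Id4, 1.30 for Id3 and 1.19 for Id2. Thus 5 of 10 members were at least 2-fold apart between the lines, against 15.8% of tested genes. Id1 differed by 0.01 and Smad7 by 0.05 between the same lines. Between the 2i clones 3 members were 2-fold apart (Id3 by 1.36, Id2 by 1.20 and Bmp4 by 1.01, each higher in 2B1), against 1.73% of tested genes. Between the partial clones 3 were so (Smad6 by 1.41, Msx1 by 1.35 and Msx2 by 1.03, each higher in 5C5), against 10.6%.

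Set directly against ESCs, 2i iPSCs showed no called difference in these genes. Of the 10 members 0 passed limma, 0 had an unadjusted p under 0.05, and 0 passed under each alternative run, against 3.85% of tested genes called (3.69% higher and 0.158% lower). The differences nearest to the threshold were Id3, higher by 1.42 in 2i iPSCs (SE 0.62, limma adjusted p = 0.363), and Msx1, higher by 1.09 (SE 0.46, limma adjusted p = 0.344). The other Msx1 probe set, 1417127_at, differed by only 0.07 (limma adjusted p = 0.916). The intervals were wide for most members: that of Id1, with a difference of -0.14, ran from -0.90 to 0.63, and that of Bmp4, with -0.32, from -2.13 to 1.49. Smad7 had the narrowest interval, from -0.79 to 0.32. Fibroblast markers were higher in 2i iPSCs than in ESCs in 8 of 9 tested genes, and their part was not tested.

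**Figure D3:**
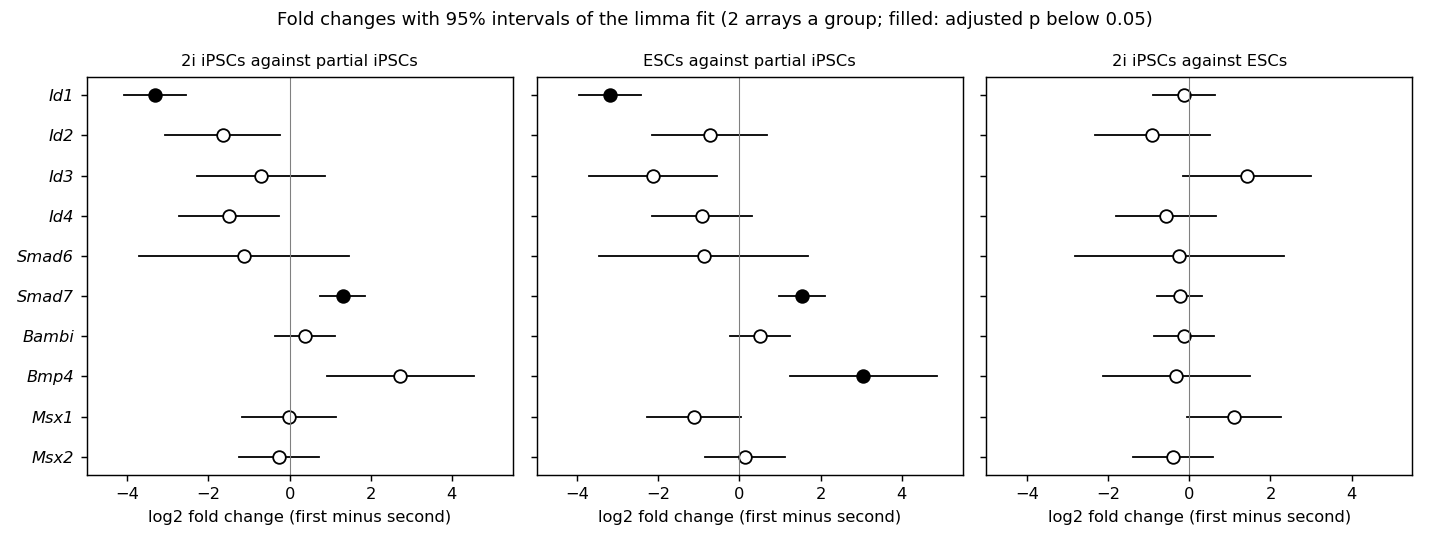
Log2 fold changes (x axis) of the 10 genes (y axis) in 3 comparisons of 2 arrays against 2, with 95% intervals of the limma fit as bars and filled points for limma adjusted p below 0.05. Id1 stands at -3.32 in 2i iPSCs and -3.18 in ESCs against partial iPSCs, and at -0.14 between 2i iPSCs and ESCs.

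MEFs, with 1 array and no test, combined an intermediate Id1 with high Id3. Id3 read 11.07 in MEFs, against 9.88 and 9.37 in partial iPSCs and 6.84 and 8.14 in ESCs. This was its highest level on the untransduced arrays. Id1 read 10.24 in MEFs, lower than in the partial clones by 1.72 and 2.20 and higher than in ESCs by 1.23 and 1.21. Bmp4 stood at 9.51 in MEFs, higher than in the partial clones by 3.70 and 3.37 and between the levels of the ESC lines. Smad7, at 8.82 in MEFs, was higher than in the partial clones by 1.63 and 1.23 and within 0.14 of both ESC lines. By its other probe set, 1443771_x_at, Smad7 was higher in MEFs than in the ESC lines by 0.50 and 0.32. Msx2 read 6.85 in MEFs on its brighter probe set, against 4.70 and 5.74 in partial iPSCs and 5.60 and 5.12 in ESCs. That probe set reached the filter's level on 3 of 14 arrays, and the other one read between 2.41 and 2.96 on all 14, below every array's 25th percentile. Against both partial clones 4 members were at least 2-fold higher (Id3, Smad7, Bmp4 and Msx2) and 1 was lower (Id1), against 9.90% and 11.3% of tested genes. Against both ESC lines 3 were higher (Id1, Id3 and Msx2) and 0 lower, against 15.4% and 15.2%.

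Ordered by level, Id1 stood highest in the partial clones, next in MEFs and lowest in ESCs and 2i iPSCs, which did not differ beyond the spread of the 2i clones. Smad7 was lowest in the partial clones, and its readings in MEFs, 2i iPSCs and ESCs lay within 0.36 of each other. On its other probe set they had a range of 0.56. Bmp4 was also lowest in the partial clones, and the ranges of 2i iPSCs and ESCs overlapped. Over the 7 untransduced arrays the tested genes with the pattern most like Id1 were Sbspon (Pearson r = 0.993), Prdm8 (0.989) and Pip4p2 (0.983). Those most like Id2 were Emc10 (0.969), Dbp (0.958) and Nap1l3 (0.956), and those most like Id3 were Myd88 (0.972), Klf6 (0.970) and AI413582 (0.970). These correlations are descriptions over 7 arrays that share a normalization, picked from 12663 genes.

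In transduced 2B1 cells the array labelled Cnot123 had the low readings of most members. Bmp4 read 3.96 there, against 6.20 with empty vector, a difference of -2.24. On the arrays labelled Cnot1, Cnot2, Cnot3, Trim28 and Nanog it read 5.16, 5.49, 5.30, 5.67 and 6.62. The Cnot123 reading was thus 1.20 below the next lowest of the 7 and near background. Smad6 read 5.59 on the array labelled Cnot123, against 7.77 with empty vector (-2.18), with 6.59, 6.85, 6.48, 6.73 and 7.40 on the arrays labelled Cnot1, Cnot2, Cnot3, Trim28 and Nanog. It was the lowest of the 7 readings by 0.88. Id4, in the nervous system a regulator of progenitor differentiation, read 8.48 on the array labelled Cnot123, against 10.49 with empty vector (-2.01), with 9.77, 9.93, 9.28, 10.22 and 10.66 on the others in the same order. The other Id4 probe sets were lower by 1.82 and 1.42.

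Of the other Id genes, Id2 read 8.48 on the array labelled Cnot123, against 9.98 with empty vector (-1.51), with 9.31, 9.76, 8.84, 9.44 and 9.34 on the arrays labelled Cnot1, Cnot2, Cnot3, Trim28 and Nanog. Id3 read 8.99 on the array labelled Cnot123, against 10.28 with empty vector (-1.29), with 9.96, 9.91, 9.58, 9.25 and 10.58 on the others in that order. Both were again lowest on the array labelled Cnot123, though Id2 was within 0.36 of Cnot3 and Id3 within 0.26 of Trim28. Id1 read 12.02 on the array labelled Cnot123, against 13.02 with empty vector, with 12.16, 12.38, 12.34, 12.40 and 12.76 on the others. Its difference of -1.01 barely passed the 2-fold limit, and 5 of the 7 arrays lay between 12.02 and 12.40. Smad7 read 6.95 on the array labelled Cnot123 and 7.96 with empty vector, 2.01-fold lower, and Msx1 4.67 and 6.05 on the same arrays (-1.38). The dimmer Msx1 probe set differed by -0.16. Bambi (7.83 against 7.77) and Msx2 (4.13 against 3.92) were not lower on the array labelled Cnot123 than with empty vector.

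**Figure D4:**
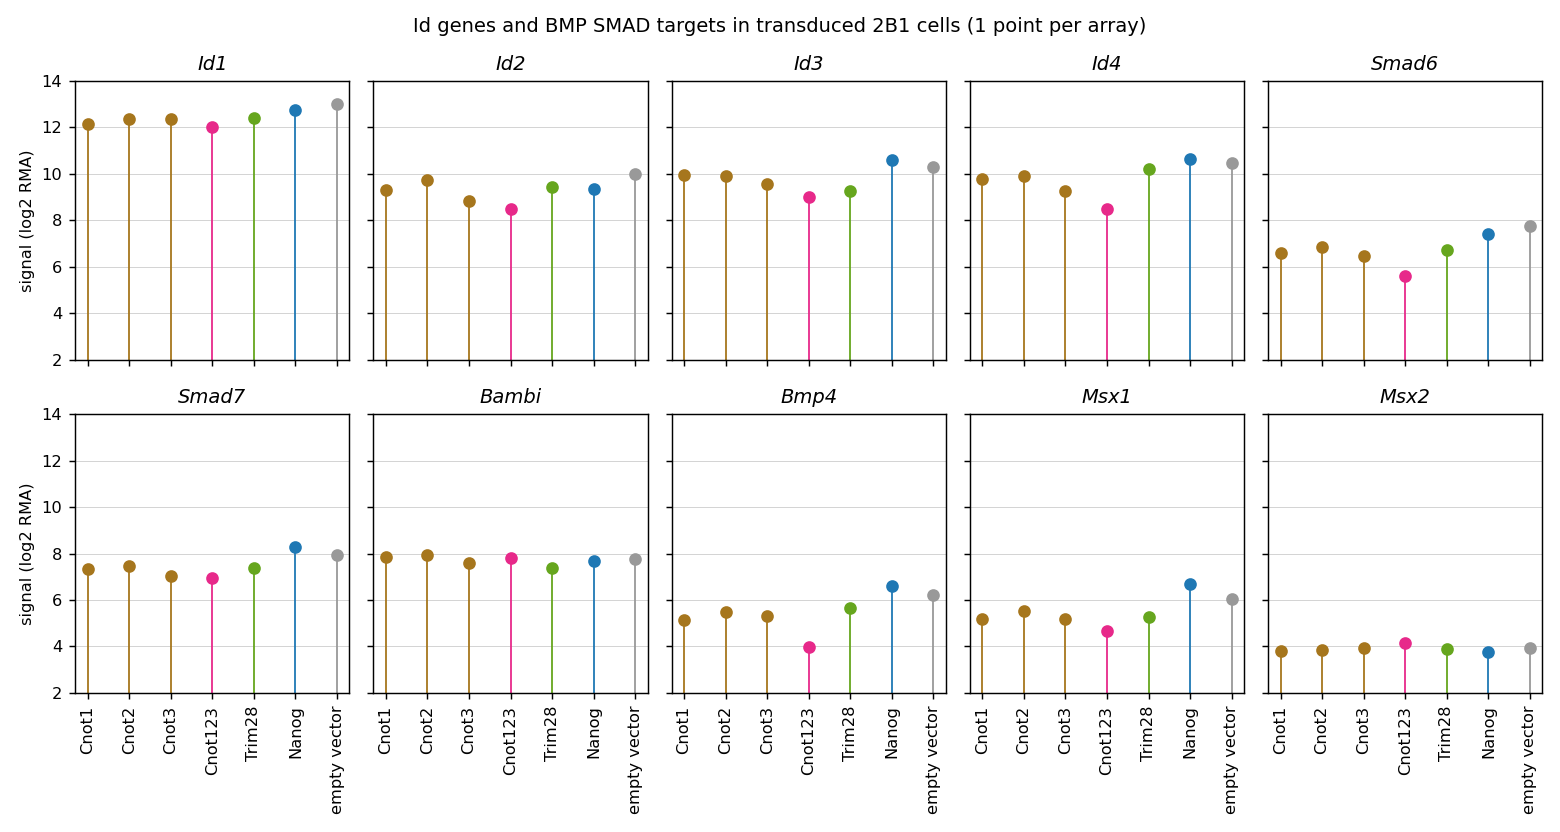
Signal (log2 RMA, y axis) of the 10 genes on each of the 7 arrays of transduced 2B1 cells (x axis), 1 point per array and no replicates. The array labelled Cnot123 has the lowest point for 8 genes, most clearly for Bmp4, Smad6 and Id4, and not for Bambi and Msx2.

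In all, 8 of 10 members were at least 2-fold lower and 0 higher on the array labelled Cnot123 than with empty vector, against 8.43% and 3.72% of tested genes. Of the probe sets of these 8 genes, only the dimmer one of Msx1 did not pass the limit. The median difference was -1.33 over the members and -0.01 over all tested genes. With arrays centred on the median, Id1 and Smad7, which sat at the limit, no longer passed it. The empty vector array itself was the highest of the 7 for 3 members (19.1% of tested genes), so the reference bears on the count: against the median of the other 6 transduced arrays, a setting chosen after seeing the data, 3 members were 2-fold lower (Id4, Smad6 and Bmp4), against 4.15% of tested genes. Independent of which array serves as the reference, the array labelled Cnot123 was the lowest of the 7 for 8 of 10 members, against 24.1% of tested genes. The gap to the next lowest array was small for Smad7 (0.07) and Id1 (0.15). By probe set, the array labelled Cnot123 was the lowest for 12 of 17. Fibroblast markers averaged 6.67 on the array labelled Cnot123 and 5.81 with empty vector, and 5 of 9 tested were at least 2-fold higher and 1 lower there. Neural markers averaged 7.33 on the array labelled Cnot123 and 8.07 with empty vector. Pax6, also singled out after its values were seen, was lower by at least 2-fold (6.39 and 8.68 on these arrays). Sox1 and Nes differed by -0.72 and -0.44, and Tubb3 by 0.46. The trophoblast marker Eomes was also lower by at least 2-fold (4.08 and 7.64). Its list did not follow it, with differences of -0.19 (Krt7), 0.14 (Cdx2), 0.24 (Elf5) and 0.55 (Hand1). Cdx2, Elf5 and Hand1 were too dim to be tested. Pluripotency markers averaged 5.29 on the array labelled Cnot123 and 5.27 with empty vector. The part of these markers in the result was not tested, and with 1 array per condition an effect of the factors and a difference between these cultures cannot be told apart.

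The other transduced arrays, which share the empty vector array with that comparison, showed smaller differences. Most members were nevertheless below empty vector on the arrays labelled Cnot1, Cnot2, Cnot3 and Trim28 (9, 9, 9 and 10 of 10). Of all tested genes 55.1%, 54.7%, 51.3% and 52.5% were below it. The median differences over the members were -0.69, -0.52, -0.89 and -0.56, against -0.05, -0.04, -0.01 and -0.02 over all tested genes. On the array labelled Cnot3, 3 members were at least 2-fold lower: Smad6 (-1.29), Id4 (-1.20) and Id2 (-1.14), against 5.19% of tested genes lower (2.49% were higher). On that labelled Cnot1 there were 2, Smad6 (-1.18) and Bmp4 (-1.04), against 5.87% lower (4.15% higher), and on that labelled Trim28 also 2, Smad6 (-1.04) and Id3 (-1.03), against 1.52% lower (0.963% higher). These counts rest on the brightest probe sets. The other Smad7 probe set, 1443771_x_at, passed the limit on the arrays labelled Cnot3, Cnot1 and Trim28 too (-1.26, -1.19 and -1.09), against -1.42 on that labelled Cnot123. The other Id4 probe sets did not pass on that labelled Cnot3 (-0.92 and -0.99). On the array labelled Cnot2 0 members passed the limit, against 3.89% of tested genes lower and 2.87% higher, and the differences ran from -0.92 (Smad6) to 0.18 (Bambi). Against the median of the other 6 transduced arrays, 0 members passed on the arrays labelled Cnot1, Cnot2, Cnot3 or Trim28. The array labelled Nanog read higher than empty vector for several genes and lower for 5 of 10 members, against 52.9% of tested genes lower. Msx1 differed there by 0.64 from empty vector, Bmp4 by 0.43 and Smad7 by 0.33, and Id2 by -0.65. Of the 10 members 0 reached 2-fold there, against 0.869% of tested genes lower and 0.561% higher. Against the median of the other 6 transduced arrays, 2 members were at least 2-fold higher on the array labelled Nanog, Msx1 (6.69 against 5.22) and Bmp4 (6.62 against 5.40), against 3.28% of tested genes. Over the 45 pairs of members, Pearson r across the 7 transduced arrays had a median of 0.746 (-0.799 to 0.972), and across the 7 untransduced arrays a median of 0.125 (-0.905 to 0.902), as a description of arrays that share a normalization and, in the transduced set, a clone.

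**Figure D5:**
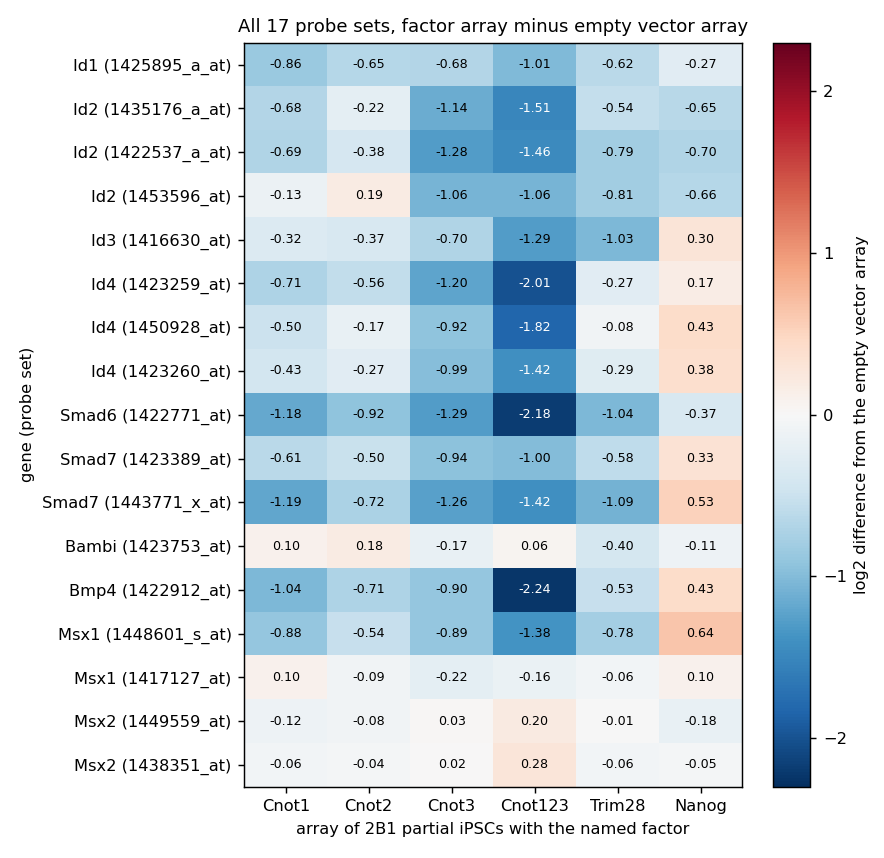
Log2 difference from the empty vector array (colour and printed value) for the 17 probe sets of the 10 genes (rows) on the 6 arrays with an introduced factor (columns). On the array labelled Cnot123, values at or below -1 are found for all probe sets of Id1, Id2, Id3, Id4, Smad6, Smad7 and Bmp4. The brighter Msx1 probe set is also at or below -1 there. The column of the array labelled Nanog is near 0 or above it apart from Id1, Id2, Smad6, Bambi and Msx2.

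The rest of the pathway was described with 6 lists of 66 genes. Among BMP ligands other than Bmp4, 4 of 11 were tested, and 0 passed in any comparison of replicated groups (0 also at an unadjusted p under 0.05). Among 7 tested receptors 0 passed in 2i iPSCs against partial iPSCs (0 at an unadjusted p under 0.05). In ESCs Bmpr2, the type II BMP receptor, fell by 1.47 (SE 0.27, limma adjusted p = 0.026) and the type I receptor Acvr1 fell by 1.24 (SE 0.24, limma adjusted p = 0.0293), each against partial iPSCs. Acvr1 was 2.83-fold higher in 2i iPSCs than in ESCs (limma adjusted p = 0.0371). Of 11 tested SMAD mediators and modulators, Smad3, which carries TGF-beta and activin signals, fell by 1.93 in ESCs (SE 0.28, limma adjusted p = 0.0133). 0 of the 11 passed in 2i iPSCs against partial iPSCs or against ESCs (0 and 3 at an unadjusted p under 0.05).

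Among secreted antagonists Fstl1, Grem1 and Bmper passed the test. Fstl1, a secreted glycoprotein that binds BMP4, read 10.02 and 10.27 in 2i iPSCs, and in ESCs 10.07 and 10.39, against 12.47 and 12.95 in partial iPSCs. It fell by 2.56 in 2i iPSCs (SE 0.26, limma adjusted p = 0.011) and by 2.48 in ESCs (limma adjusted p = 0.00517). Grem1, which sequesters BMP2 and BMP4, read 8.10 and 8.11 in 2i iPSCs, 4.47 and 4.15 in ESCs, and 8.68 and 8.23 in partial iPSCs. It was thus lower in ESCs than in partial iPSCs (-4.14, limma adjusted p = 0.00147) and higher in 2i iPSCs than in ESCs by 3.79 (limma adjusted p = 0.00345), and fibroblast markers were likewise higher in 2i iPSCs than in ESCs, with a median of 4.32, though their part was not tested. Bmper, another extracellular regulator of BMPs, read 3.40 and 2.99 in ESCs, below the 25th percentile of both arrays, so its differences are bounds. With the ESC readings set to those percentiles, Bmper was 3.27-fold lower in ESCs than in partial iPSCs and 4.65-fold higher in 2i iPSCs than in ESCs. These folds are of group means and leave out the spread. On the readings as deposited, both differences were called (limma adjusted p = 0.0161 and 0.0189). In all, 1 of 8 tested antagonists fell in 2i iPSCs and 3 in ESCs against partial iPSCs, 0 rose in either, and 2 were higher in 2i iPSCs than in ESCs. Of all tested genes 2.46% fell in 2i iPSCs and 9.82% in ESCs against partial iPSCs, and 3.69% were higher in 2i iPSCs than in ESCs.

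Among 9 tested further BMP targets, the T-box gene Tbx3 rose in 2i iPSCs by 5.48 (SE 0.39, limma adjusted p = 0.00515) and in ESCs by 5.15 (limma adjusted p = 0.00249), and Hes1, a repressor also induced by Notch, fell, with log2 fold changes of -1.50 (limma adjusted p = 0.0292) and -1.03 (limma adjusted p = 0.041), each against partial iPSCs. Gata2 was higher in 2i iPSCs than in ESCs by 2.24 (limma adjusted p = 0.0169). Of 5 tested E proteins and other helix-loop-helix genes, 0 passed in 2i iPSCs against partial iPSCs (0 at an unadjusted p under 0.05). Twist1 fell by 2.17 (limma adjusted p = 0.00458) and Ascl2 rose by 1.62 (limma adjusted p = 0.0208) in ESCs against partial iPSCs, and Twist1 was higher in 2i iPSCs than in ESCs by 2.28 (limma adjusted p = 0.0083).

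On the array labelled Cnot123 the wider pathway moved in both directions relative to empty vector. Hes1 read 9.17 there, against 11.19 with empty vector (-2.02), and Zfp423, a zinc finger partner of SMADs, 6.69 against 8.20 (-1.50). Hey1 (-1.33), Twist1 (-1.64) and Bmper (-1.06) were also lower. Higher there were Tbx3 (6.61 against 4.58), the antagonists Fst (5.90 against 4.47) and Grem1 (7.98 against 6.85), and the ubiquitin ligase Smurf1 (8.66 against 7.62), by 2.03, 1.43, 1.13 and 1.03. Twist1 was lower by at least 2-fold on the arrays labelled Cnot1, Cnot2 and Cnot3 too (-2.51, -1.67 and -1.76), as was Zfp423 (-1.18, -1.15 and -1.36). Bmper was so on those labelled Cnot1, Cnot3 and Nanog (-1.16, -1.40 and -1.36), and Hes1 on that labelled Cnot3 (-1.10). Bmper read 4.18, 3.95 and 3.98 on those arrays and 4.28 on that labelled Cnot123, near background. Its reading with empty vector, 5.34, was its highest on the transduced arrays. Tcf4 was lower on that labelled Cnot1 (-1.09). Higher by at least 2-fold on the arrays labelled Cnot1 and Cnot2 were Tbx3 (1.23 and 1.19) and Dlx2 (1.03 and 1.27). Of the BMP receptors and the ligands other than Bmp4, 0 of 11 tested differed 2-fold from empty vector on any of the 6 arrays.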

How the data were processed

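RNA of 14 samples was hybridised to Affymetrix arrays of 45101 probe sets. The deposited table holds log2 signals made by the authors with RMA and the affy package, per the submitters' processing notes; the values form 2 sets of 7 arrays with differing distributions. Probe sets were named from the platform annotation where it gives 1 gene (34945 probe sets; 932 had several genes and 9160 none), and 34741 matched current RefSeq symbols. Of several probe sets of a gene the brightest on average was used, and a gene was tested if at least 2 arrays reached the table's median (5.42), which kept 12663 of 18193 genes.

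Partial iPSCs, 2i iPSCs and ESCs (2 arrays each) were fitted together with limma 3.58.1 in R 4.3.3 (lmFit, eBayes, two-sided, 3 residual and 2.25 prior degrees of freedom), with Benjamini-Hochberg adjustment over all tested genes and calls at an adjusted p below 0.05. The fit was tested on simulated data. Conditions with 1 array got no test and are described by differences of at least 2-fold. Nothing says that a culture was repeated, so p-values reflect differences among clones or lines. The 2i and partial arrays are paired by clone; deviations from the group means correlated at 0.11 over genes. Precision is limited by how few arrays there are.

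The genes, the 6 pathway lists and the 6 marker lists were chosen with earlier results of these data known. Named were the 10 genes with all probe sets, from each list at most 3 genes called or past 2-fold per direction, and for Id1, Id2 and Id3 the 3 genes most alike in Pearson r. Alternatives were the clone block, the compared arrays alone, centring, quantile normalization, filters, probe set rules, eBayes with trend, a 1.5-fold limit and leaving out each array.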

Additional observations from a re-analysis of the deposited data

Results flagged for a closer look

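Msx1 and Msx2 differed in opposite directions in the 2 clones on conversion under 2i, with 1 array per clone and state. The difference of 2i iPSCs from partial iPSCs was 0.59 in clone 2B1 and -0.63 in clone 5C5 for Msx1, and 0.26 in 2B1 and -0.77 in 5C5 for Msx2. The other probe set of Msx1 gave 0.16 in 2B1 and -0.32 in 5C5, while that of Msx2, below the 25th percentile of every array, ran the other way, with -0.03 in 2B1 and 0.19 in 5C5. The difference between the clones was not tested. The 2i clones were 0.14 apart for Msx1 and 0.0034 apart for Msx2, against 1.35 and 1.03 between the partial clones.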

How the results depend on the processing

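Over the alternatives run, 61 counts stayed within 1.5 times the main count and 21 did not, and of the values of single genes 362 kept direction and side of the threshold, 18 lost a call, 10 gained one and 11 reversed. In 2i iPSCs against partial iPSCs, where 2 of the 10 genes and 760 of all genes were called, the replicate block by clone gave 1 (297 of all genes) and the 4 compared arrays alone 4 (1396). In ESCs against partial iPSCs, with 3 and 2015, the replicate block gave 2 (1197) and the 4 compared arrays alone 1 (780). Leaving out 1 array gave 0 to 4 of the 10 genes in the first comparison (43 to 1396 of all genes), 1 to 3 in the second (780 to 2328), and 0 between 2i iPSCs and ESCs, where 487 of all genes were called in the full set, against 0 to 786. Fits without 1 array leave its group with a lone array, assumed to vary like the other groups. Centring arrays shifted the medians by at most 0.14, in 2i iPSCs against ESCs.

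With a 1.5-fold limit, members past it relative to empty vector numbered 7 lower for Cnot1 (13.7% of all tested genes lower), 3 for Cnot2 (9.84%) and 8 for Cnot3 (11.8%). There were 8 lower for Cnot123 (16.2%), as many as for Cnot3, and 4 for Trim28 (5.99%). For Nanog there were 2, 1 lower (2.99%) and 1 higher (2.15%). Against the median of the other 6 transduced arrays, chosen after seeing the data, members past the 2-fold limit numbered 0 for Cnot1, 0 for Cnot3, 3 lower for Cnot123 (4.15% of all tested genes lower), 0 for Trim28 and 2 higher for Nanog (3.28% higher). Directions of uncalled genes reversed when 1 array was left out, with ranges of -0.70 to 0.66 (Msx1) and -0.77 to 0.26 (Msx2) in 2i iPSCs against partial iPSCs, -2.34 to 0.59 (Smad6) and -0.38 to 0.65 (Msx2) in ESCs against partial iPSCs, and -0.46 to 0.19 (Id1), -1.28 to 0.12 (Id4), -1.71 to 1.21 (Smad6) and -1.30 to 0.67 (Bmp4) in 2i iPSCs against ESCs. The cause was not tested.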
